A study of Mus musculus with 16 samples.

Results

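The RNA of 9 genes through which astrocytes handle potassium, water and ions and couple to one another was followed in the mouse striatum after an injection of clozapine N-oxide (CNO). The 9 genes are the potassium channel genes Kcnj10 and Kcnj16, the sodium pump subunit gene Atp1b2, the bicarbonate cotransporter gene Slc4a4, the water channel gene Aqp4, the membrane partners Mlc1 and Hepacam, and the connexin genes Gja1 and Gjb6. They were picked by name from the 17097 genes of the deposited tables, as a list of names chosen with earlier results of these data known. All 9 were present in every library, with at least 292 reads each, and all 9 passed the filter on low values in each comparison.

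Striata were collected from adult (P63) male C57BL/6J wild-type mice 2 h after CNO at 1 mg/kg or vehicle. From each mouse RNA was taken from ribosomes pulled down through a hemagglutinin tag (immunoprecipitate, IP), described as specific to astrocytes, and from the cleared lysate of the whole tissue (input). This gave 16 libraries, 4 each of CNO IP, of vehicle IP, of input after CNO and of input after vehicle, numbered 2 to 5 within a group. The titles hold 8 mouse codes, 4 per injection, whereas the series text speaks of 4 mice, and the code was taken as the animal. Were the replicates not separate animals, the p-values would describe technical spread alone. The title of the series names Gi signalling in astrocytes. CNO is a ligand of engineered receptors, but the labels name neither the receptor nor the promoter or carrier of the tag, and mice given CNO without a receptor were not analysed here. Levels are counts per mega reads (CPM), differences are on the scale of log2 CPM, and values of single libraries are listed in the order of replicates 2 to 5. The IP libraries held 52.1 to 61.5 M reads each and the input libraries 32.8 to 40.3 M (M, mega).

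Astrocytes take up the potassium that active neurons release, through inward rectifier channels and the sodium pump, and let it spread through gap junctions into neighbouring astrocytes. Water follows ions through the water channel of the endfeet, which a complex of dystrophin-associated proteins holds against the vessel wall. The membrane proteins encoded by Mlc1 and Hepacam sit at the contacts between endfeet, and loss of either in people causes a leukodystrophy with swelling of the white matter.

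The 250 bases before the RefSeq start are shown for 3 connexin genes and for Hepacam. After CNO the connexin gene Gja1 was lower in IP, Gjb2, a pathway gene outside the 9, was higher, and Gjb6 did not pass the test, and Hepacam had the largest fitted decrease of the 9. They come from the RefSeq set on GRCm38.p6 and read 5′ to 3′ along the gene. The windows are chr10:56377050-56377299 (plus) for Gja1, chr14:57104703-57104952 (minus) for Gjb2, chr14:57133612-57133861 (minus) for Gjb6 and chr9:37367356-37367605 (plus) for Hepacam. Capitals mark matches, on either strand, to the AP-1 motif TGANTCA and to the core of the cyclic AMP response element, TGACG.
Gja1: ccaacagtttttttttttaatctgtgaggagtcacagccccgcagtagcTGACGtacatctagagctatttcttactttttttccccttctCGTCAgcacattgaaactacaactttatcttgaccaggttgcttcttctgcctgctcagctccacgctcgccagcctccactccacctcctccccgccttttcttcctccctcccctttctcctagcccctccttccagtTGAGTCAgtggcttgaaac
Gjb2: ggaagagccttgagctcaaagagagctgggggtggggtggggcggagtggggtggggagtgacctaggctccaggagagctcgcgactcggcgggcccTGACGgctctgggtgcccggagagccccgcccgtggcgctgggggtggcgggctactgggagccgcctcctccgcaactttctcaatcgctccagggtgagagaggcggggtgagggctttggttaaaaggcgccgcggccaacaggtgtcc
Gjb6: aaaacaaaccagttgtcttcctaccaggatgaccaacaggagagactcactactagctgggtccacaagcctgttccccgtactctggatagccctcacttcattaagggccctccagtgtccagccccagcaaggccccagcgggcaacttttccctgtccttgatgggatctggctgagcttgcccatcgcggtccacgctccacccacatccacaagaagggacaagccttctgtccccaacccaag
Hepacam: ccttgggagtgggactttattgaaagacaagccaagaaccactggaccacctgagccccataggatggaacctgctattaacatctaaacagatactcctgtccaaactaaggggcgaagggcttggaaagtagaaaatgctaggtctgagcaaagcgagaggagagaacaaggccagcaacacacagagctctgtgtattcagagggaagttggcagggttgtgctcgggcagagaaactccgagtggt
Gja1 held an AP-1 match that begins 19 bases before the start, and the short motif as TGACG at 201 bases and as CGTCA at 159 bases before it. Gjb2 held the short motif once, at 152 bases before the start. No match to either motif was found in the windows of Gjb6 or Hepacam, nor in those of Kcnj10, Kcnj16, Slc4a4 and Mlc1 (7 of the 9 genes had windows in the table, 11 windows in all, and Aqp4 and Atp1b2 were not searched). Among all 32851 windows of that length in the table, 6.75% held the AP-1 motif and 17.8% held the short motif. A match of letters is a description of the window and does not show a site in use.

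All 9 genes were annotated as protein coding on GRCm38 (mm10) in GENCODE M21. Kcnj10 lies at chr1:172341210-172374085 on the plus strand, Kcnj16 at chr11:110968033-111027968 plus, Atp1b2 at chr11:69599736-69605942 minus, Slc4a4 at chr5:88886818-89239653 plus and Aqp4 at chr18:15389496-15410982 minus. Mlc1 lies at chr15:88955884-88979007 on the minus strand, Hepacam at chr9:37367351-37386575 plus, Gja1 at chr10:56377330-56402513 plus and Gjb6 at chr14:57123303-57133611 minus. The Hepacam window shown above lies inside this GENCODE span, because its RefSeq start is further downstream. The windows searched for Mlc1 and Slc4a4 and some of those for Kcnj16 also lie inside the spans of their genes. Aqp4 overlaps an antisense model, AC133525.2, outside its exons, and the other 8 overlap no annotated gene. Gjb2 lies at chr14:57098600-57104702 minus, beside Gjb6 on the same strand, with 18.6 kb between the gene bodies.

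In IP, the most abundant transcript per length was that of Mlc1, at 327 ± 32.1 CPM per kb of exon in CNO mice and 327 ± 35.4 in vehicle mice (SD, n = 4 each). Aqp4 followed at 190.5 ± 20.3 CPM per kb in CNO IP and 216 ± 32.4 in vehicle IP. Kcnj10, Slc4a4, Gja1, Hepacam, Atp1b2 and Gjb6 formed a close group, between 72.0 and 104.5 CPM per kb in CNO IP and between 72.3 and 114 in vehicle IP, and of these Kcnj10 and Slc4a4 differed from the next lower in order by less than the larger of both SDs in vehicle IP. Kcnj16 was the lowest, at 12.6 ± 0.96 CPM per kb in CNO IP and 15.4 ± 1.01 in vehicle IP. The length used was the union of all annotated exons, so a gene with long rarely used exons is understated.

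**Figure D1:**
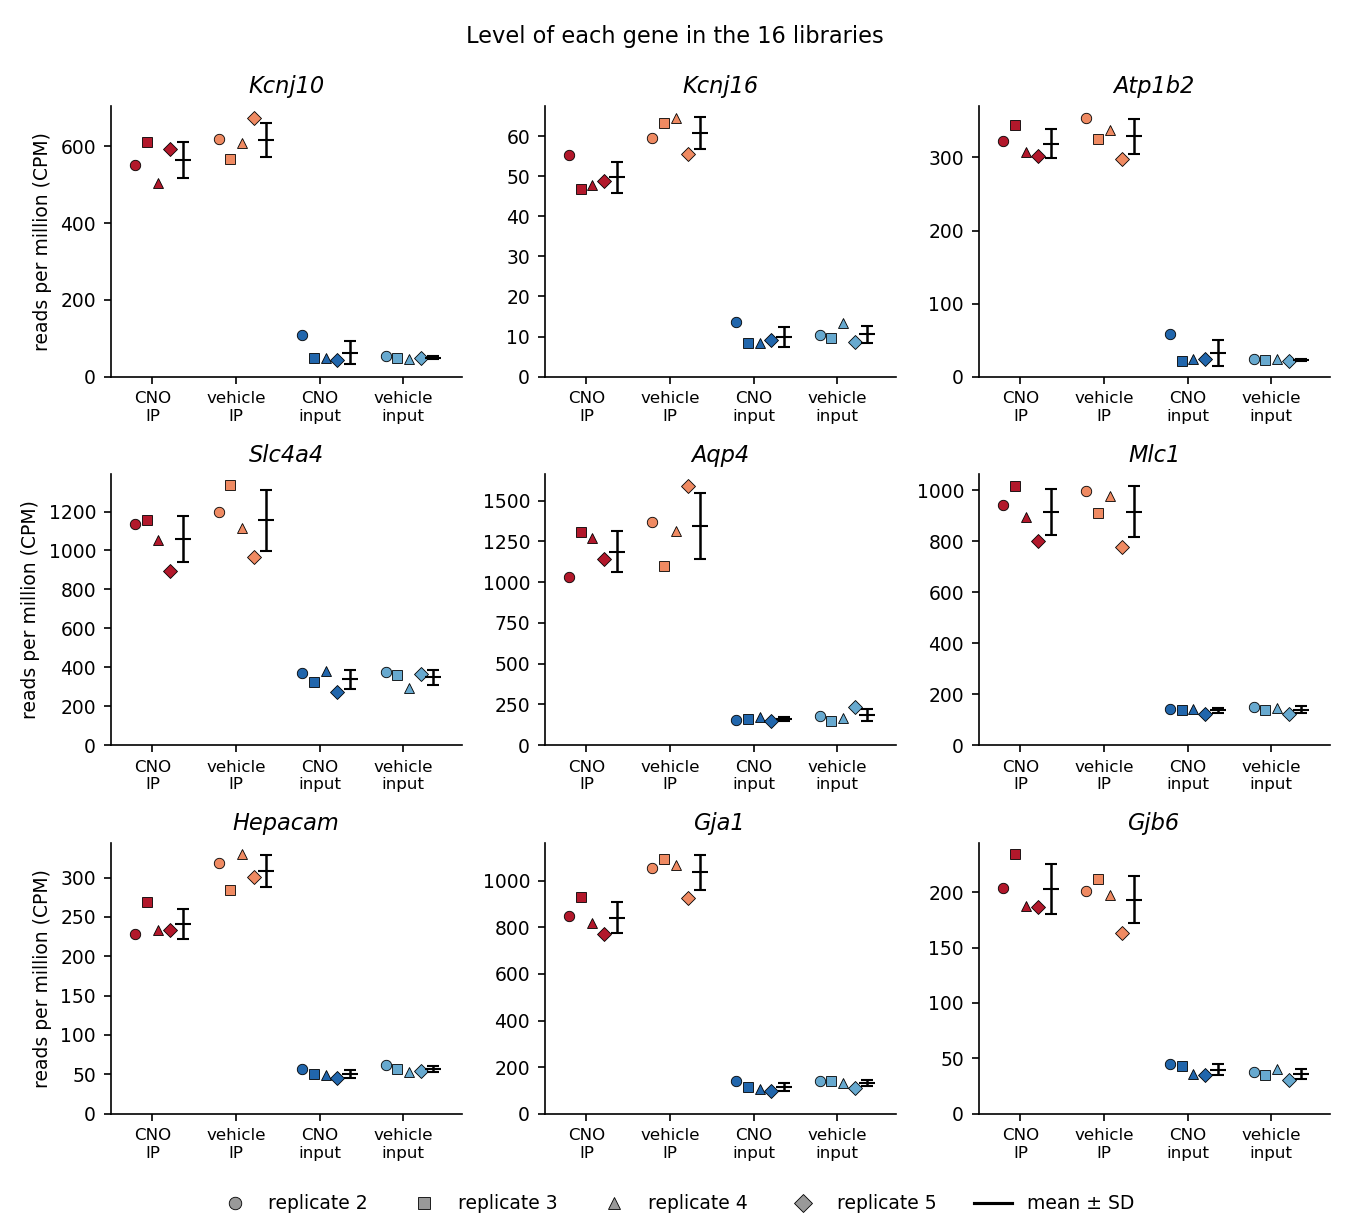
Level of each of the 9 genes (CPM, linear axis from 0) in every library of the 4 groups, with replicates as symbols and mean ± SD (n = 4) as bars. IP libraries stand above input libraries for every gene, Hepacam and Kcnj16 show no overlap between CNO IP and vehicle IP, and CNO input replicate 2 stands apart for Kcnj10 (109 CPM) and Atp1b2 (58.3 CPM).

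All 9 genes were higher in IP than in input in both sets of mice, with no overlap between the groups. How many of all genes showed no such overlap was not counted, here or between CNO and vehicle. Their median log2 ratio of IP to input was 2.74 in CNO mice and 2.72 in vehicle mice, against 0.04 and 0.01 over all genes tested. In CNO mice 40% of 15819 genes were called higher in IP and 35% lower, and in vehicle mice 37.7% of 15872 were called higher and 37.2% lower (limma, Benjamini-Hochberg adjusted p under 0.05). With so many genes called, the size of each ratio and its rank are given below. The 14 other astrocyte markers looked at, such as Aldh1l1 and Slc1a2, were all higher in IP as well, with log2 ratios from 1.76 to 3.79 in vehicle mice.

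Atp1b2 and Kcnj10 had the largest ratios. Atp1b2, a glial beta subunit of the sodium pump that also acts in cell adhesion, held 322, 345, 307 and 302 CPM in CNO IP and 354, 325, 338 and 298 CPM in vehicle IP. In input it held 58.3, 21.8, 24.0 and 24.0 CPM after CNO and 23.5, 22.3, 23.8 and 21.2 CPM after vehicle. The single high value among the inputs belongs to CNO input replicate 2, and the other 7 inputs lie close together.

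The log2 ratio of Atp1b2 was 3.45 (SE 0.29, limma adjusted p = 7.81e-06) in CNO mice, the 13th largest of all genes tested, and 3.86 (SE 0.06, limma adjusted p = 5.80e-10) in vehicle mice, the 3rd largest. Kcnj10, the main inward rectifier of astrocytes, had ratios of 3.28 (SE 0.27, limma adjusted p = 5.33e-06, rank 20) in CNO mice and 3.65 (SE 0.07, limma adjusted p = 9.07e-10, rank 5) in vehicle mice. Without CNO input replicate 2 the ratios in CNO mice were 3.78 for Atp1b2 and 3.59 for Kcnj10.

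Gja1, Aqp4 and Mlc1 came next, with log2 ratios of 2.90, 2.91 and 2.74 in CNO mice and 2.99, 2.88 and 2.72 in vehicle mice, among the 156 largest ratios in each set of mice. Kcnj16, Hepacam and Gjb6 lay between 2.26 and 2.36 in CNO mice and between 2.43 and 2.54 in vehicle mice. Slc4a4, which carries sodium and bicarbonate together, was the least enriched, at 1.66 (SE 0.12) in CNO mice and 1.73 (SE 0.11) in vehicle mice, below the lowest of the 14 astrocyte markers in vehicle mice (1.76) and above the lowest in CNO mice (1.55). The ratio of Kcnj16 lay under that of its channel partner Kcnj10, with 95% intervals of 2.03 to 2.70 and 2.67 to 3.89 in CNO mice, and of 2.27 to 2.82 and 3.49 to 3.80 in vehicle mice.

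**Figure D2:**
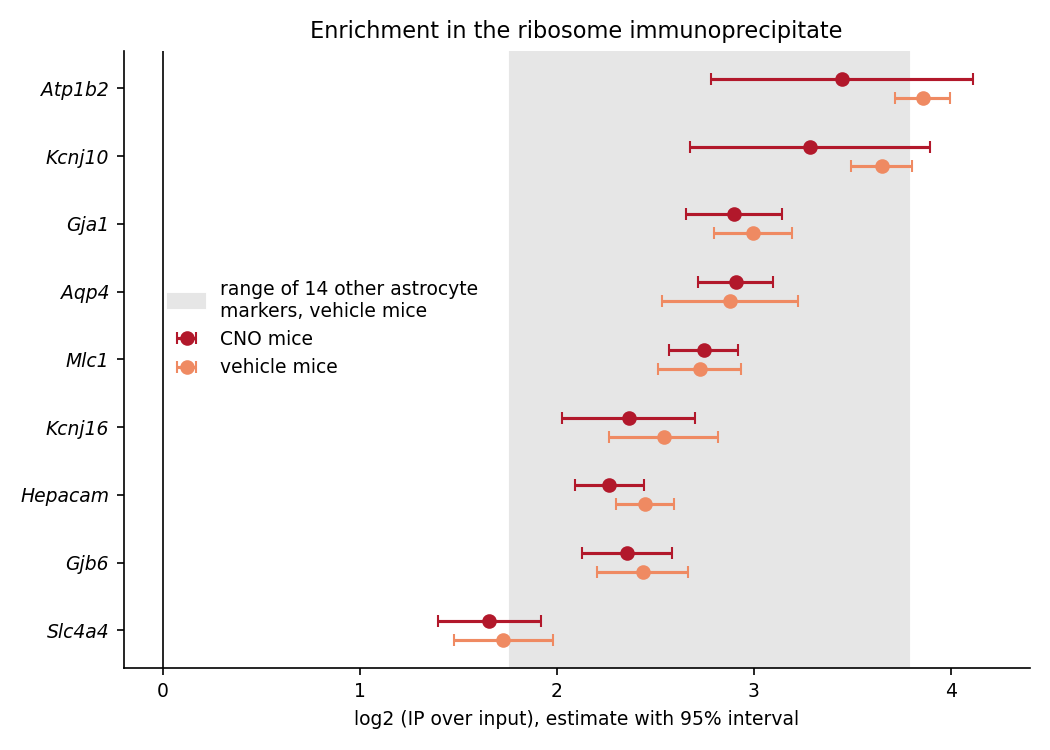
Log2 ratio of IP to input for the 9 genes in CNO mice (dark) and vehicle mice (light), as limma estimates with 95% intervals, with the range of 14 other astrocyte markers in vehicle mice shaded. In vehicle mice Atp1b2 (3.86) lies just above the shaded range, Kcnj10 (3.65) near its upper end and Slc4a4 (1.73) just below it. Intervals are wide for Atp1b2 and Kcnj10 in CNO mice.

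Of the 58 further genes of the same pathways that were measured (a 59th, Kcnj13, was listed but has no value here), 34 of 58 tested were higher and 11 lower in IP than in input in CNO mice (21 lower with upper quartile scaling), and 30 of 57 tested were higher and 16 lower in vehicle mice. The 34 include Lrrc8e, with 67 reads in CNO IP and 7 in CNO input. In CNO mice Lrrc8e passed the filter on low values only through the IP libraries. So did Aqp1, with 70 reads in CNO IP and 25 in CNO input, and neither gene is used as support. Large ratios in CNO mice were those of Gjb2 (2.90) and the potassium chloride cotransporter gene Slc12a4 (2.78). In vehicle mice Slc12a4 stood at 2.56, the syntrophin gene Sntb1 at 2.50 and Slc12a7, a relative of Slc12a4, at 2.49. The most depleted were the dystrobrevin gene Dtnb, at -1.75 in CNO mice and -1.82 in vehicle mice, and the vascular connexin gene Gja4, at -1.60 and -1.92, with the potassium channel gene Kcnj2 at -1.37 and -1.40. Trpv4, a gene for a calcium-permeable cation channel linked to volume sensing, stood at -1.33 in CNO mice, and the vascular connexin gene Gja5 at -1.74 in vehicle mice. These ratios and that of Gja4 rest on few reads. Gja4 had 99 reads in CNO IP and 226 in CNO input, and 91 in vehicle IP and 286 in vehicle input. Trpv4 had 126 reads in CNO IP and 241 in CNO input. Gja5 shares 165 exonic bases with Gpr89, so some of its reads may be split. It had 53 reads in vehicle IP and 129 in vehicle input. It passed the filter on low values only through the input libraries, and its call, counted among the 16 lower, is not used as support.

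After CNO, 3 of the 9 genes were lower in IP and none was higher (limma, adjusted over all 15602 genes tested). The number was 1 with replicate 4 of either IP group left out, and Hepacam was called in all 13 alternatives run. The same 3 had an unadjusted p under 0.05, as did 4621 of the 15602 genes tested. Limma-voom on the recovered reads also called 3 lower and 0 higher. In bulk samples such as these, fewer cells of a type and less RNA per cell cannot be told apart. The 3 genes were Hepacam, Gja1 and Kcnj16, 1 each from the adhesion partners, the connexins and the potassium channels. Over all genes 10.2% were called higher and 7.08% lower, and the median log2 difference of the 9 was -0.13 against -0.01 over all genes. Of the 14 other astrocyte markers 2 were lower, Gli3 and S100b, with a median of -0.18 over the 14. Among the members the other 6 did not pass the test, and each of the 3 that did had a partner or neighbour in function that did not. A pass in 1 gene and not in its partner does not show that they differ. In IP the ratios of Mlc1 to Hepacam, Gja1 to Gjb6 and Kcnj10 to Kcnj16 did not pass after adjustment. Their adjusted p was 0.0571, 0.0571 and 0.229 (exact permutation tests, given below).

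Hepacam encodes the glial adhesion molecule that brings the Mlc1 protein to cell contacts. It held 228, 269, 233 and 233 CPM in CNO IP and 318, 284, 330 and 301 CPM in vehicle IP. Every CNO value lay under every vehicle value. The difference was -0.36 (SE 0.07, 95% interval -0.51 to -0.20, limma adjusted p = 0.00702), a level 21.9% lower after CNO.

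Mlc1 itself held 942, 1018, 897 and 802 CPM in CNO IP and 998, 913, 978 and 778 CPM in vehicle IP. The groups covered the same range, and the difference was -0.00 (95% interval -0.22 to 0.22, limma adjusted p = 0.995). Within each IP library Mlc1 stood at 4.13, 3.78, 3.84 and 3.45 times the Hepacam reads after CNO and at 3.13, 3.21, 2.96 and 2.59 times after vehicle. This ratio does not depend on the scaling of a library. It was 0.35 log2 units larger in CNO IP, without overlap (exact two-sided permutation test, p = 0.0286, the smallest that 4 against 4 allows, and 0.0571 after adjustment over the 6 ratios tested). In input the ratio was 2.72 ± 0.18 after CNO and 2.45 ± 0.20 after vehicle (SD, n = 4 each; exact permutation p = 0.0857, adjusted 0.129).

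Gja1 encodes the main gap junction protein of astrocytes. It held 847, 932, 819 and 772 CPM in CNO IP and 1058, 1096, 1070 and 927 CPM in vehicle IP. The groups touched at a single point, where CNO IP replicate 3 stood just above vehicle IP replicate 5. The difference was -0.30 (SE 0.08, 95% interval -0.47 to -0.13, limma adjusted p = 0.0247), and the call was lost when any of CNO IP replicates 2, 4 and 5 or of vehicle IP replicates 2, 3 and 4 was left out, with adjusted p from 0.0523 to 0.0776.

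Gjb6, the second connexin gene named for astrocytes, held 204, 235, 187 and 187 CPM in CNO IP and 201, 212, 197 and 163 CPM in vehicle IP. These values overlapped throughout, with a difference of 0.07 (95% interval -0.15 to 0.29, limma adjusted p = 0.717). In reads, Gjb6 made up 24.0, 25.2, 22.9 and 24.2 per 100 Gja1 reads in CNO IP and 19.0, 19.3, 18.4 and 17.6 in vehicle IP. No CNO library reached down to a vehicle library in this mixture, and input showed the same order, with 32.3, 37.6, 34.0 and 36.5 after CNO and 27.1, 25.2, 30.2 and 27.5 after vehicle. On the log2 scale the ratio of Gja1 to Gjb6 differed between CNO and vehicle by -0.37 in IP and by -0.35 in input (exact two-sided permutation test, p = 0.0286 each, the smallest possible, and 0.0571 after adjustment).

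Gjb2 encodes a further connexin and was among the pathway genes looked at beside the 9. It held 47.2, 53.3, 52.8 and 57.1 CPM in CNO IP and 14.9, 11.2, 12.8 and 11.4 CPM in vehicle IP. In input it held 6.28, 6.47, 7.56 and 8.05 CPM after CNO and 2.56, 2.39, 3.94 and 3.12 CPM after vehicle. All CNO libraries stood far above all vehicle libraries in both kinds of RNA.

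The difference for Gjb2 was 2.07 in IP (SE 0.10, limma adjusted p = 1.18e-06), a 4.20-fold higher level, and 1.26 in input (SE 0.17, limma adjusted p = 0.00580), 2.39-fold higher. Set against its neighbour on the chromosome, Gjb2 made up 23.2, 22.7, 28.2 and 30.5 reads per 100 Gjb6 reads in CNO IP and 7.39, 5.26, 6.51 and 6.98 in vehicle IP. Per length it remained the lowest of the 3 connexins, at 21.9 ± 1.69 CPM per kb in CNO IP against 76.0 ± 8.36 for Gjb6 and 82.1 ± 6.58 for Gja1. The mixtures with Gjb2 were computed after its values had been seen and carry no test.

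**Figure D3:**
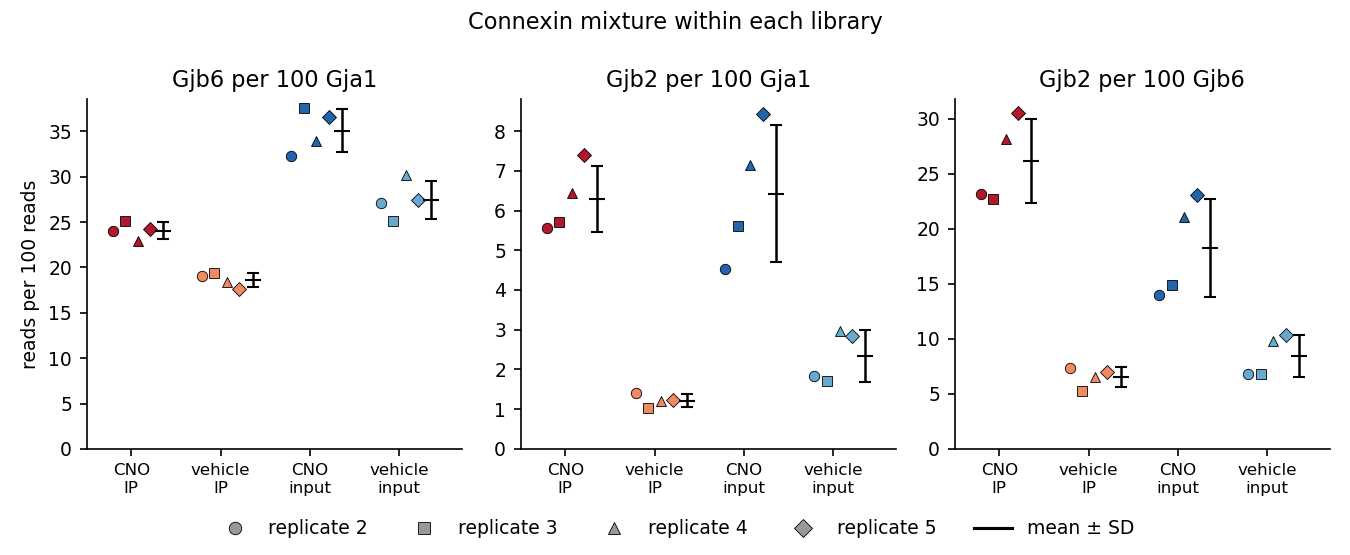
Reads of one connexin gene per 100 reads of another within each library (linear axes from 0), by group, with replicates as symbols and mean ± SD (n = 4) as bars. Gjb6 per 100 Gja1 stood at 24.1 ± 0.93 in CNO IP and 18.6 ± 0.76 in vehicle IP, and Gjb2 per 100 Gja1 at 6.28 ± 0.83 and 1.21 ± 0.16, with no overlap between CNO and vehicle libraries of the same kind of RNA in any of the 3 mixtures.

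Kcnj16 encodes a subunit that joins the Kcnj10 product in a mixed channel sensitive to pH. It held 55.3, 46.9, 47.9 and 48.9 CPM in CNO IP and 59.6, 63.3, 64.5 and 55.6 CPM in vehicle IP. The groups did not overlap, although the highest CNO value lay next to the lowest vehicle value. The difference was -0.29 (SE 0.07, 95% interval -0.44 to -0.14, limma adjusted p = 0.0171), and the adjusted p was 0.0554 with CNO IP replicate 4 left out and 0.0558 with vehicle IP replicate 4 left out.

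Kcnj10 held 553, 611, 504 and 593 CPM in CNO IP and 620, 567, 608 and 674 CPM in vehicle IP. The groups overlapped, and the difference of -0.13 did not pass the test (95% interval -0.30 to 0.04, limma adjusted p = 0.307). Kcnj10 stood at 9.99, 13.0, 10.5 and 12.1 times the reads of Kcnj16 in CNO IP and at 10.4, 8.97, 9.43 and 12.1 times in vehicle IP. That ratio overlapped between the groups (difference 0.16 log2 units, exact permutation p = 0.229, adjusted 0.229).

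Aqp4 held 1029, 1306, 1271 and 1144 CPM in CNO IP and 1371, 1098, 1317 and 1590 CPM in vehicle IP, with the widest relative spread of the 9 in vehicle IP (coefficient of variation 15.04%). Its difference of -0.17 had an interval of -0.44 to 0.09 (limma adjusted p = 0.395). Slc4a4 held 1136, 1156, 1052 and 896 CPM in CNO IP and 1199, 1338, 1118 and 966 CPM in vehicle IP, a difference of -0.12 with an interval of -0.38 to 0.14 (limma adjusted p = 0.559). For both genes the groups overlapped, and a decrease as large as that of Hepacam lies inside the intervals.

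Atp1b2 differed by -0.04 in IP (95% interval -0.19 to 0.11, limma adjusted p = 0.7504), the narrowest interval of the 6 that did not pass. Its IP values, listed above, overlapped between the groups.

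Some libraries were high or low in their group for many of the genes at once. CNO IP replicate 3 was the highest of its group for 8 of the 9 genes, all but Kcnj16, and CNO IP replicate 5 the lowest for 5. Vehicle IP replicate 5 was the lowest for 6 genes (Kcnj16, Gja1, Gjb6, Mlc1, Atp1b2 and Slc4a4) and the highest for Kcnj10 and Aqp4. The members are thus not independent measurements of the same animals.

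In input no member passed the test between CNO and vehicle (limma, 15825 genes tested, of which 0.815% were called higher and 0.183% lower). Of the 9, 1 (Hepacam) had an unadjusted p under 0.05, as did 1595 of the 15825 genes. Limma-voom also called 0 of the 9 there. Hepacam held 56.3, 50.9, 48.8 and 44.9 CPM in CNO input and 62.2, 56.3, 53.2 and 54.7 CPM in vehicle input, a difference of -0.17 (95% interval -0.35 to -0.00, limma adjusted p = 0.485). Gja1 held 139, 116, 106 and 95.4 CPM in CNO input and 140, 140, 133 and 110 CPM in vehicle input, a difference of -0.20 (95% interval -0.47 to 0.06, limma adjusted p = 0.637). Both signs were those seen in IP, with overlapping groups.

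Kcnj10 held 109, 48.6, 49.0 and 43.4 CPM in CNO input and 53.8, 48.9, 45.2 and 49.2 CPM in vehicle input. Its difference of 0.24 had an interval of -0.42 to 0.89, and that of Atp1b2, 0.37, an interval of -0.34 to 1.08 (limma adjusted p = 0.867 and 0.768). CNO input replicate 2 holds the highest value of both genes, and without it the differences were -0.07 and 0.03. In that library 385 of the 15825 genes, or 2.43%, stood at 1.5 times the highest of the other 3 CNO inputs or more. They included Kcnj10 (2.22 times) and Atp1b2 (2.43 times) and 2 of the 14 astrocyte markers, Slc6a11 (2.89 times) and Sox9 (1.53 times), but not Aqp4 (0.87 times) or Aldh1l1 (0.82 times).

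For the other 5 genes the input differences lay between -0.20 and 0.15. Aqp4 held 152, 158, 175 and 147 CPM in CNO input and 181, 150, 168 and 235 CPM in vehicle input. Gjb6 held 44.8, 43.4, 35.9 and 34.9 CPM in CNO input and 37.8, 35.2, 40.0 and 30.3 CPM in vehicle input. The groups overlapped for these and for Kcnj16, Mlc1 and Slc4a4.

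**Figure D4:**
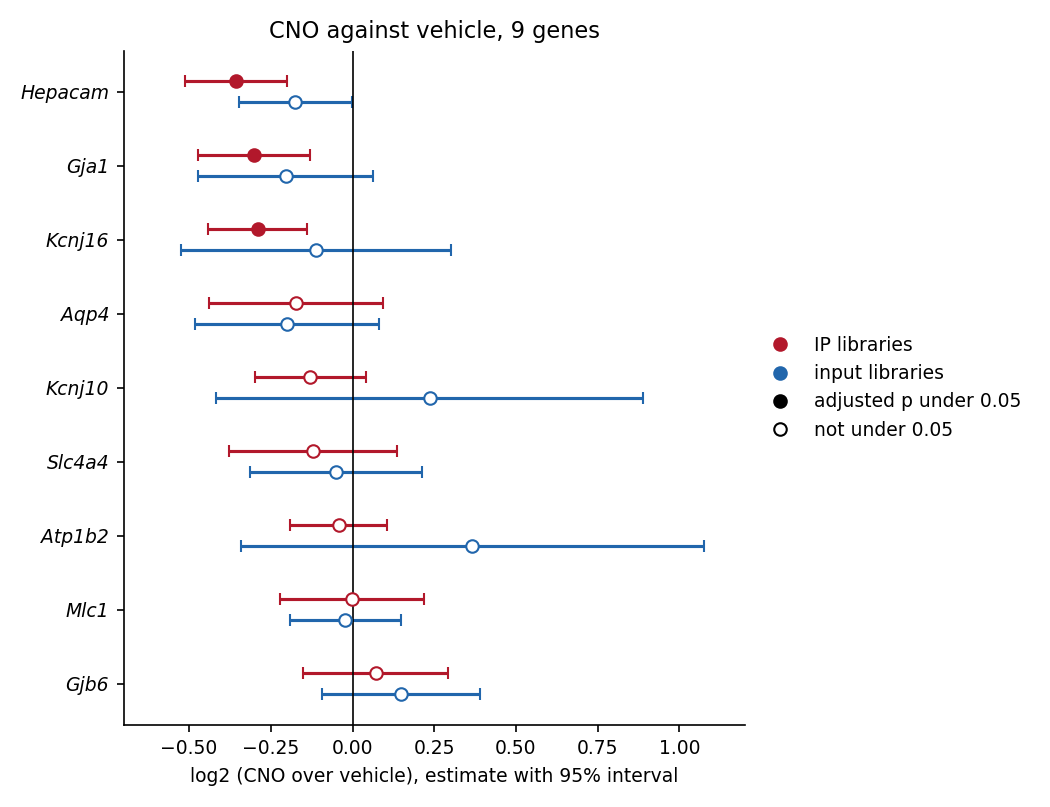
Log2 difference between CNO and vehicle for the 9 genes in IP and in input libraries, as limma estimates with 95% intervals, with filled points for an adjusted p under 0.05. Hepacam (-0.36), Gja1 (-0.30) and Kcnj16 (-0.29) pass in IP, none passes in input, and the intervals of Kcnj10 and Atp1b2 in input are the widest.

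The CNO difference in IP was set against that in input in 1 fit over the 16 libraries. None of the 9 genes passed (limma, 16256 genes tested, 4.18% called higher and 0.572% lower), and none had an unadjusted p under 0.05, as 2415 of all genes did. The fitted values ran from -0.41 for Atp1b2 and -0.36 for Kcnj10 to 0.03 for Aqp4, and without CNO input replicate 2 those of Atp1b2 and Kcnj10 were -0.08 and -0.06, and those of Hepacam, Gja1 and Kcnj16 -0.13, 0.00 and -0.01. For Hepacam, Gja1 and Kcnj16, called in IP and not in input, the difference between both effects was -0.18 (95% interval -0.41 to 0.04), -0.10 (-0.41 to 0.22) and -0.18 (-0.62 to 0.27), so these data do not show that the effect was particular to IP. With the mouse as a block the number of genes called over the whole table was 1240 instead of 773, and still none of the 9 was called. The 5 comparisons draw on the same 16 libraries and are not independent of each other.

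Among the 58 pathway genes, 7 were higher and 3 lower in CNO IP than in vehicle IP, where 10.2% of all genes were higher and 7.08% lower, so that the shares lie near those of all genes. The 7 include Lrrc8e, an anion channel subunit gene with 67 reads in CNO IP and 19 in vehicle IP, which passed the filter on low values only through the CNO IP libraries, and its call is not used as support. The highest was Gjb2, described above. Kcnk10, a leak potassium channel gene, held 31.5, 38.1, 39.9 and 45.7 CPM in CNO IP and 13.98, 11.7, 11.9 and 17.3 CPM in vehicle IP, a difference of 1.505 (SE 0.15, limma adjusted p = 1.58e-04). Slc4a7, an electroneutral sodium bicarbonate cotransporter gene related to Slc4a4, held 67.4, 71.5, 81.0 and 67.5 CPM in CNO IP and 30.1, 32.3, 30.4 and 29.9 CPM in vehicle IP, a difference of 1.22 (SE 0.06, limma adjusted p = 2.28e-06). In both cases every CNO library exceeded every vehicle library by a wide margin.

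Slc4a7 showed 36.9, 35.7, 43.5 and 34.8 CPM in CNO input and 33.5, 35.5, 31.3 and 31.7 CPM in vehicle input, and there the test was not passed (0.19, limma adjusted p = 0.447). Its CNO difference was larger in IP than in input by 1.03 (SE 0.10, limma adjusted p = 7.85e-06), and that of Kcnk10 by 0.93 (SE 0.19, limma adjusted p = 0.00653). For Gjb2 the excess was 0.81 (SE 0.20, limma adjusted p = 0.0255), a call lost in 7 of the 16 fits that each left out a library. These 3 were the pathway genes called in that comparison, and Gjb2 was the one called in input. Kcnk10 held 8.87, 6.83, 8.98 and 8.72 CPM in CNO input and 5.06, 5.78, 6.05 and 5.52 CPM in vehicle input. The groups did not overlap, and the difference of 0.57 did not pass the test (limma adjusted p = 0.0593).

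The volume-regulated anion channel gene Lrrc8a (0.55, limma adjusted p = 0.00361) was also higher in CNO IP. It shares 2944 exonic bases with other gene models. The scaffold gene Tjp1 (0.53, limma adjusted p = 0.00813), whose product binds connexins and tight junction proteins under the membrane, was higher too. Tjp1 held 406, 485, 488 and 465 CPM in CNO IP and 309, 283, 301 and 391.5 CPM in vehicle IP. Vehicle IP replicate 5 was the highest of its group and still lay under every CNO IP library.

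Lower in CNO IP were Gprc5b (-0.39, limma adjusted p = 0.00105), a receptor gene, and the dystrophin complex gene Dtna (-0.31, limma adjusted p = 0.00370). Dtna held 340, 355, 357 and 344 CPM in CNO IP and 448, 439, 445 and 395 CPM in vehicle IP, without overlap. Gprc5b shares 606 exonic bases with Iqck on the other strand.

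By group, 2 of the 10 water channel and dystrophin complex genes were lower and none higher, 3 of the 12 connexin, pannexin and scaffold genes were higher and none lower, and 2 of 9 anion channel and volume genes (Lrrc8e among the 2) were higher and 1 lower. 1 of 5 potassium channel genes and 1 of 6 bicarbonate and proton transport genes were higher. None of the 8 sodium pump genes and none of the 8 chloride cotransporter and kinase genes passed in either direction (limma), and 1 gene in each had an unadjusted p under 0.05. Over all genes tested, 4621 of 15602 had an unadjusted p under 0.05. The median of the 58 was 0.02.

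**Figure D5:**
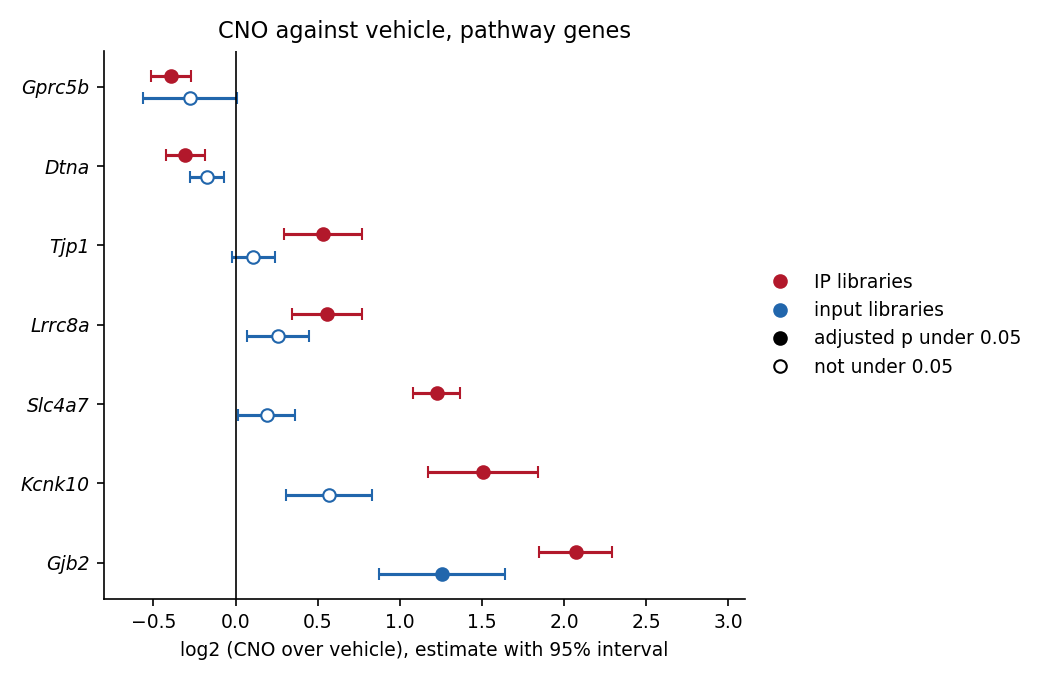
Log2 difference between CNO and vehicle in IP and in input for 7 further pathway genes called in IP, as limma estimates with 95% intervals, with filled points for an adjusted p under 0.05. Gjb2 (2.07), Kcnk10 (1.505) and Slc4a7 (1.22) lie to the right in IP, Gprc5b and Dtna to the left, and Gjb2 alone is filled in input. Lrrc8e is not drawn.

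The scaling of the libraries bears on the small differences. With upper quartile scaling of the same values, Hepacam, Gja1 and Kcnj16 stood at -0.41, -0.36 and -0.35 and were still called, and of all calls in IP 39.3% were higher, against 59.2% with the deposited scaling. In the comparison of both CNO effects that share was 73.3% against 88.0%. In IP against input it was 40.2% against 53.3% in CNO mice and 40.8% against 50.3% in vehicle mice, where that scaling moved the median of all genes to -0.17 and -0.15.

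Markers of other cell types also moved between the groups. The summed level of 5 pericyte markers was 84.5 to 101 CPM in CNO IP and 128 to 152 CPM in vehicle IP, without overlap. The sums follow Pdgfrb, which was called lower, with a mean of 25.4 CPM in CNO IP and 63.3 CPM in vehicle IP, while 2 of the 5 had a positive difference and the median of the 5 was -0.07. Pdgfrb was called lower in input as well (-0.52, limma adjusted p = 0.0164). In vehicle mice Pdgfrb and Cspg4 were higher in IP than in input, with means of 63.3 against 22.2 CPM and 60.3 against 28.4 CPM. The other 3 pericyte markers were lower in IP than in input. Whether the share of pericytes changed was not tested. The 7 ependymal markers summed to 167 to 221 CPM in CNO IP and 214 to 299 CPM in vehicle IP, with a negative difference for all 7 (median -0.35, 2 with an unadjusted p under 0.05, none called). They were enriched in IP, with median log2 ratios to input of 2.31 in CNO mice and 2.45 in vehicle mice, and summed in input to 31.7 to 40.6 CPM after CNO and 38.9 to 49.7 CPM after vehicle. The 7 endothelial markers summed to 15.05 to 17.4 CPM in CNO IP and 16.5 to 22.9 CPM in vehicle IP, with a negative difference for all 7 (median -0.35, none called). In input they summed to 87.7 to 112 CPM after CNO and 126 to 137 CPM after vehicle, without overlap. All 7 had a negative difference there too (median -0.33), and Cldn5 and Slco1a4 were called lower. The 14 astrocyte markers summed to 37007 to 40419 CPM in CNO IP and 35027 to 43799 CPM in vehicle IP. The sums overlap, and 12 of the 14 had a negative difference (median -0.18, 6 with an unadjusted p under 0.05). Over all genes in IP, 4621 of 15602 had an unadjusted p under 0.05. No marker of these lists stood at 0 reads in a group, and the part of the other cell types in the decreases of Hepacam, Gja1 and Kcnj16 was not tested. IP also held 7 interneuron markers at a summed 1084 to 1159 CPM after CNO and 1058 to 1179 CPM after vehicle, above input at 233 to 273 and 211 to 274 CPM. Of the 7, Pvalb alone went the other way. Its mean was 12.7 CPM in IP against 22.0 in input after CNO, and 16.7 against 30.5 after vehicle. The 8 microglial markers summed to 67.2 to 78.4 CPM in CNO IP and 63.8 to 94.2 CPM in vehicle IP, below input at 720 to 1011 and 611 to 1354 CPM. The 7 oligodendrocyte lineage markers summed to 7563 to 9952 CPM in CNO IP and 5728 to 13326 CPM in vehicle IP. Their median log2 ratios to input were 0.71 in CNO mice and 0.63 in vehicle mice. The 10 medium spiny neuron markers summed to 2610 to 3987 CPM in CNO IP and 2968 to 3417 CPM in vehicle IP. Their median ratios to input were -1.57 and -1.63.

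For each member, the gene with the most similar pattern was sought by the root mean square difference of log2 CPM, centred on each gene, over the 16 libraries and among 10448 genes with a mean of at least 10 CPM. Hepacam was nearest to Sash1 (0.06 log2 units), Mlc1 to the glutamate transporter gene Slc1a3 (0.0747), Gja1 to Plxnb1 (0.0805) and Gjb6 to Fam20a (0.109). Slc4a4 was nearest to Agmo (0.116), Aqp4 to the urea transporter gene Slc14a1 (0.127), Kcnj16 to Pard3b (0.154) and Kcnj10 to 5930403L14Rik (0.145). The nearest gene to Atp1b2 was Kcnj10 itself (0.164), and both share the high CNO input replicate 2. The measure is led by the large step between IP and input that these genes share.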

How the data were processed

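RNA was measured by sequencing in 16 striatal libraries (4 groups of 4). The submitters' processing notes name bcl2fastq 2.17, STAR, HTSeq, limma and the build mm10, and give no strand setting or annotation. The authors deposited log2 CPM, 17098 lines per library. They gave whole reads within 0.01 read, with a prior count of 0.25, for all values. A duplicate line was dropped.

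Tests used limma 3.58.1 in R 4.3.3 (lmFit, eBayes with trend and robust) on the deposited log2 values, with Benjamini-Hochberg adjustment over all genes tested. Genes needed a CPM equal to 10 reads in the median library in at least 4 libraries, and 15 reads in all. Ratios within libraries used exact permutation tests (Python 3.11.15, SciPy 1.17.1). The fit was tested on simulated data. Samples were grouped by the labelled injection and kind of RNA. IP and input with one mouse code come from one animal, and their deviations correlated at 0.18 to 0.55, so the mouse block was run as an alternative, as were upper quartile scaling, no filter, a prior count of 2, limma-voom on recovered reads and leaving out each library.

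The 9 genes and all lists were chosen with earlier results of these data known. Named pathway genes are those past the threshold between injections, up to 12 a comparison, and up to 4 each way between IP and input, by size. A few of them are not reported here.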

Additional observations from a re-analysis of the deposited data

Results flagged for a closer look

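Among 76 groups of 4 libraries looked at, 6 held a library whose gap to the nearest of the others was larger than Dixon's limit allows, and chance alone flags about 1 group in 20. CNO input replicate 2 stood apart for 3 members, with Kcnj10 at 109 CPM, Kcnj16 at 13.7 CPM and Atp1b2 at 58.3 CPM, each the highest of its group. CNO IP replicate 3 was high for Hepacam at 269 CPM. Of the pathway genes, Kcnk10 was low in CNO input replicate 3 at 6.83 CPM, and Dtna was low in vehicle IP replicate 5 at 395 CPM.

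The CNO difference was larger in IP than in input for Slc4a7 (1.03 log2 units), Kcnk10 (0.93) and Gjb2 (0.81), each by an interaction term in limma with adjusted p of 7.85e-06, 0.00653 and 0.0255.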

How the results depend on the processing

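Of 1488 recomputed values for 106 results, none changed sign while called and 1453 kept their side of the threshold, or a count within 1.5 times. Hepacam was called lower in CNO IP in all 13 alternatives, with adjusted p from 0.00315 to 0.0435. Leaving out 1 library gave 1 to 3 members lower in CNO IP (1 with replicate 4 of either IP group left out), 1781 to 2958 genes called there against 2703 (lowest without vehicle IP replicate 2), 93 to 182 called in input against 158, 1 to 2 pathway genes higher and 0 to 1 lower in input, and 2 to 5 pathway genes higher in the difference of both effects against 3 (5 without vehicle IP replicate 5). Upper quartile scaling gave 21 pathway genes lower in IP than in input in CNO mice against 11.

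Equal replicate numbers of CNO and vehicle mice did not pair the samples (correlations from -0.31 to 0.18). With that replicate block 102 genes were called in input, and Kcnj16 in IP had an adjusted p of 0.0547. With the mouse as replicate block 1240 genes were called in the difference of both effects, and no member call changed in the comparisons within mice. The causes were not tested. The labels' number of animals, the lack of a group given CNO without a receptor and the unknown strand setting limit the comparisons.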
